A study of Mus musculus with 3 samples.

Results

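The miR-148/miR-152 family consists of the microRNAs (miRNAs) cut from 3 mouse hairpins, miR-148a, miR-148b and miR-152. Its 6 mature members, the 5p and the 3p arm of each hairpin, were found by name among the 1915 mature miRNAs listed for each library, and all 6 had counts in all 3 libraries. The libraries were made from exosomes, small membrane vesicles that cells release. The source cells were bone-marrow-derived macrophages of wild type C57BL/6 mice, cultured for 24 h in the presence of M-CSF, the growth factor of macrophages, and afterwards with exosome-free bovine serum, and vesicles were pelleted from the medium after 72 h. There was 1 group of 3 libraries, called libraries 1, 2 and 3, and no other strain, treatment or time. Members were therefore compared with each other and between libraries, but not between conditions. Mouse age, the number of animals and whether the libraries came from separate cultures were not given, so the libraries may be technical replicates and p-values cover no more than their spread. No library of the parent cells was analysed here.

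A miRNA guides Argonaute proteins to messenger RNAs that pair with its seed, bases 2 to 8 from the 5′ end, and represses them. The hairpin is first cut into a duplex of both arms, of which 1 is usually kept and the other degraded. The 3p arms of this family are known to repress the maintenance DNA methyltransferase Dnmt1, and to restrain Toll-like receptor responses of dendritic cells through the kinase CaMKII. MiR-148a is also known to promote osteoclast formation from macrophage precursors.

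RefSeq sequences (build GRCm38.p6, the assembly also named mm10) were found for all 6 members, whose listed names carry the species prefix mmu-. They are shown here because the 3p arms can be told apart in the sequencing by only a few bases. Capitals mark the seed.
mmu-miR-148a-3p: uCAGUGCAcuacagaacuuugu
mmu-miR-148b-3p: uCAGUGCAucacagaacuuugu
mmu-miR-152-3p: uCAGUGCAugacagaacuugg
mmu-miR-148a-5p: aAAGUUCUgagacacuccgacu
mmu-miR-148b-5p: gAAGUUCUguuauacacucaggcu
mmu-miR-152-5p: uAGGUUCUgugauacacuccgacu

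The seed CAGUGCA was carried by 3 of the 1623 listed miRNAs with a RefSeq sequence, and these were the 3p arms of the family. Counted from 1 at the 5′ end, miR-148a-3p and miR-148b-3p differ by C9U and U10C and are identical at the other 20 of 22 positions. MiR-152-3p, 1 base shorter, differs from miR-148b-3p by C10G and U20G, and from miR-148a-3p by C9U, U10G and U20G. Bases 11 to 19 of the 3p arms, ACAGAACUU, are shared by all 3. How the authors treated reads with mismatches was not given in the sources used here, and miscounting between the 3p arms through sequencing errors was not tested. Outside the family the closest listed sequences, miR-146a-3p for miR-148a-3p and miR-382-3p for the other 2, had 8 mismatches over the first 20 bases. The 5p arms are less alike: miR-148a-5p and miR-148b-5p share the seed AAGUUCU, miR-152-5p has AGGUUCU, and all 3 hold GUUCUG from position 4.

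Each member has 1 locus in the RefSeq table. The hairpins are shown with both mature arms in capitals, 5p first.
miR-148a: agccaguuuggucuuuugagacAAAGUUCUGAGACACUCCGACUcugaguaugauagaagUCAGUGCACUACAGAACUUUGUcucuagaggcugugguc
miR-148b: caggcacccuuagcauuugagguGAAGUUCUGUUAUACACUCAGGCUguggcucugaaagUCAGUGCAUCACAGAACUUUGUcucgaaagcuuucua
miR-152: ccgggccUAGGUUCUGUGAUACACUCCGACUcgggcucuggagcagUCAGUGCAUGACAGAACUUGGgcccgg

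The miR-148b hairpin (chr15:103285125-103285221, plus strand) lies in an intron of Copz1 in all 4 GENCODE M21 transcripts that span it. The miR-152 hairpin (chr11:96850393-96850465, plus strand) lies in an intron of Copz2 in all 3 that span it. Copz1 and Copz2 are paralogous genes on the same strand as their miRNAs and encode zeta subunits of coatomer, the coat of vesicles that move between Golgi and endoplasmic reticulum. The miR-148a hairpin (chr6:51269812-51269910, minus strand) lies in no annotated host gene. Each of the 3 hairpins has a gene of the NF-E2 transcription factor family as a nearest protein-coding neighbour on 1 side, host genes left out: Nfe2l3 at a distance of 162760 bases from miR-148a, Nfe2 at 26722 bases from miR-148b and Nfe2l1 at 20425 bases from miR-152.

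The libraries held 2489984 to 3208617 counts of mature miRNAs, and levels are given as counts per 1000000 miRNA counts (CPM). Mature members are of nearly the same length (21 to 24 bases), so no length correction was made, but they differ at their ends, and the efficiency of adapter ligation to each was not tested. Library 1 stood apart from the others: among the 134 miRNAs averaging 100 CPM or more the median log2 ratio was 0.62 for library 1 over 2 and 0.96 for library 1 over 3, against 0.16 for library 2 over 3. As a check of the labelled cell type, 7 of 8 myeloid markers had at least 10 counts in every library. They summed to between 71315 and 345021 CPM, nearly all of it miR-21a-5p and miR-146a-5p. MiR-223-3p was low throughout, at 35.6, 52.6 and 33.0 CPM in libraries 1, 2 and 3. In library 1 miR-142a-3p (42.9, 1364 and 819 CPM) and miR-155-5p (74.8, 2388 and 829 CPM) were low too. The count of miR-511-3p, a miRNA from within the mannose receptor gene, was 10, 2 and 0. Of other cell types, the hepatocyte marker miR-122-5p ranged from 322 CPM in library 1 through 548 in library 2 to 1500.02 in library 3. The summed markers of epithelium (5 miRNAs) stood between 67.1 and 440 CPM, those of stroma and smooth muscle (4) between 135 and 247, of erythroid cells (3) between 15.6 and 89.7, of endothelium (2) between 25.2 and 44.6, and of neurons (2) between 5.65 and 14.02. The 3 muscle markers summed to at most 2.66 CPM, the lymphoid miR-150-5p had 1 count in all, and the neuronal miR-124-3p had none.

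The family was moderately abundant, and nearly all of it was 3p arm. Together the 6 members made up 0.820%, 0.465% and 0.612% of miRNA counts in libraries 1, 2 and 3, a mean of 0.632% ± 0.179 (SD, n = 3). The 3p arms held 99.4% ± 0.181 of these counts. By mean level miR-148b-3p ranked 34 of the 886 miRNAs detected in any library, miR-148a-3p ranked 51 and miR-152-3p ranked 89. The minor arms followed at rank 175 for miR-148b-5p, 422 for miR-152-5p and 462 for miR-148a-5p.

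**Figure D1:**
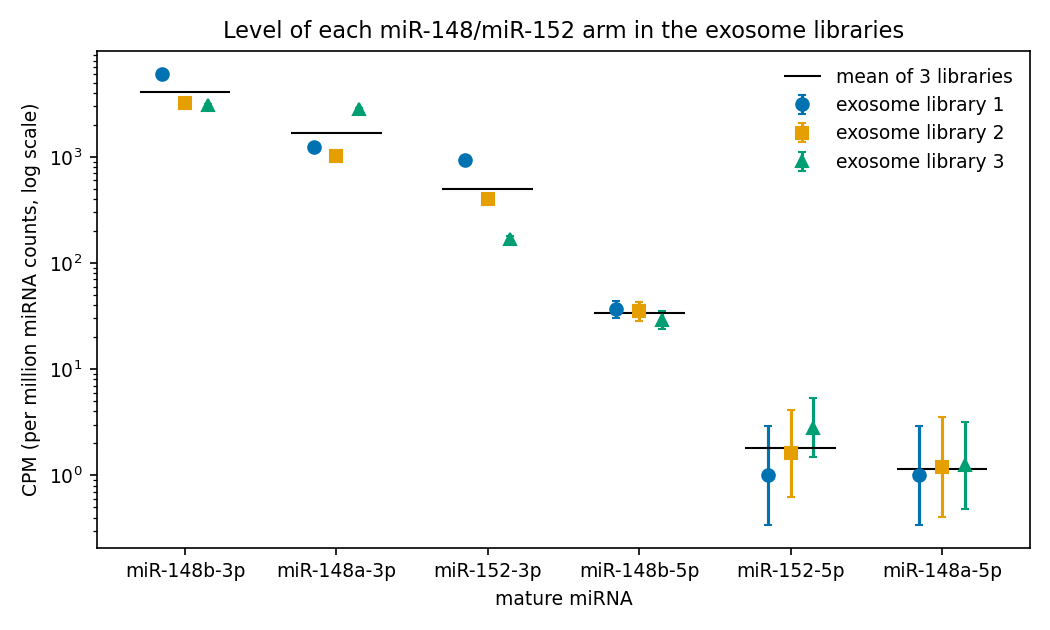
Level of each mature member in each exosome library, in CPM on a log axis. Points are libraries with Wilson 95% intervals for counting error, often smaller than the point, and the line is the mean of the 3 libraries. The 3p arms lie between 166 and 6014 CPM and the 5p arms between 0.997 and 36.6 CPM.

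The highest member in every library was mmu-miR-148b-3p, with 6014 CPM in library 1, 3200.0 in library 2 and 3099.8 in library 3. Its mean was 4105 ± 1655 CPM (SD, n = 3). Library 1 was high, and libraries 2 and 3 were close to each other. Next in every library came mmu-miR-148a-3p, with 1225, 1008 and 2820.2 CPM. Its mean was 1684 ± 989.6 CPM (SD, n = 3). Here library 3 was the high one, and without it the mean was 1117 CPM. The lowest of the 3p arms throughout was mmu-miR-152-3p, with 925, 402 and 166 CPM. Its mean of 498 ± 388 CPM (SD, n = 3) went to 284 CPM without library 1. Its 3 values stood apart from each other, with library 1 highest and library 3 lowest.

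The order of the 3p arms was thus the same in all 3 libraries, but the gaps between them were not. MiR-148a-3p stood at 0.204, 0.315 and 0.910 times the count of miR-148b-3p in libraries 1, 2 and 3, with Wilson 95% intervals of 0.197 to 0.211, 0.301 to 0.329 and 0.884 to 0.936. Its ratio to miR-152-3p was 1.32 (1.26 to 1.39), 2.51 (2.33 to 2.70) and 16.9 (15.5 to 18.5). MiR-148b-3p was 6.503, 7.96 and 18.6 times miR-152-3p. These ratios do not depend on how the libraries are scaled, and their intervals cover counting error only. With 3 libraries the exact two-sided sign-flip permutation test could not go below p = 0.25, which is what each of the 3 pairs gave (0.25 also after Benjamini-Hochberg adjustment over the 3 pairs), with the same member higher in 3 of 3 libraries. The mean log2 ratio was -1.37 ± 1.11 for miR-148a-3p over miR-148b-3p, 1.94 ± 1.91 for miR-148a-3p over miR-152-3p and 3.30 ± 0.81 for miR-148b-3p over miR-152-3p (SD, n = 3 each). Without library 3 these 3 means were -1.98, 0.87 and 2.85.

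The make-up of the family shifted accordingly. MiR-148b-3p made up 73.3% (Wilson 95% interval 72.8 to 73.9), 68.8% (68.0 to 69.7) and 50.7% (49.96 to 51.4) of the family's counts in libraries 1, 2 and 3. For miR-148a-3p the shares were 14.9%, 21.7% and 46.1%. MiR-152-3p was the smallest part, at 11.3%, 8.65% and 2.72%. MiR-148b-3p held more than the other 3p arms combined in each library, by the narrowest margin in library 3.

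**Figure D2:**
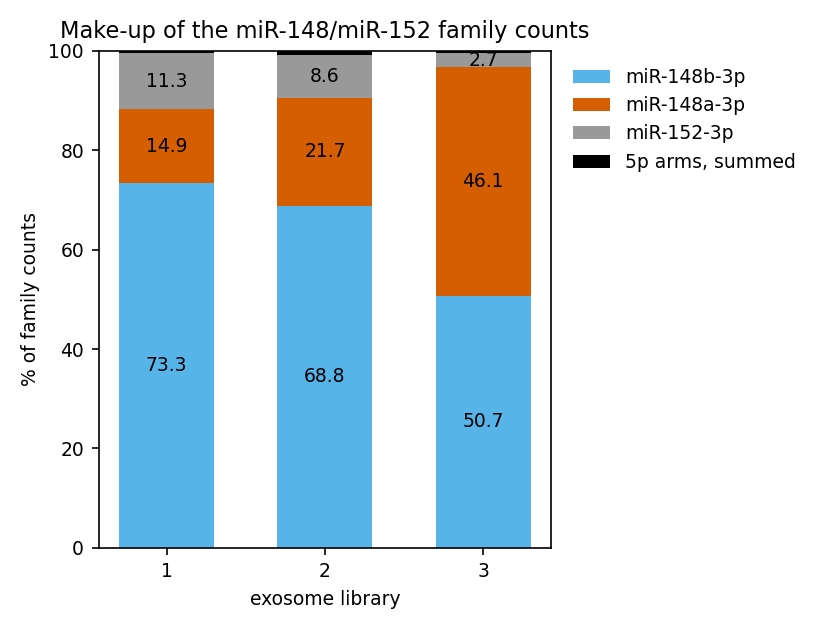
Share of the family's counts taken by each 3p arm and by the summed 5p arms (% of family counts, stacked to 100) in each exosome library. The miR-148a-3p part is 14.9% in library 1, 21.7% in library 2 and 46.1% in library 3.

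Differences of single members between libraries were set against those of all miRNAs. A chi-square test of the 3 counts against the library totals compares these libraries, not conditions, and asks only whether they differ beyond counting error. Of the 353 miRNAs that reached 30 counts over all libraries it called 318 (90.1%) at a Benjamini-Hochberg adjusted p below 0.05, so that a call is the usual outcome here. Of the 6 members 4 reached that count, and 3 of these were called, the 3p arms, with chi-square statistics of 3927 for miR-148b-3p, 3356 for miR-148a-3p and 1863 for miR-152-3p and adjusted p-values too small to be told from 0. Leaving out library 1, miR-148b-3p no longer passed (adjusted p = 0.055 by the chi-square test), when 61.5% of the tested miRNAs still did. MiR-148b-5p did not pass, at an adjusted p of 0.242 by the same test.

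By the ratio of the highest to the lowest library on the CPM scale, the 3p arms were not extreme. MiR-148b-3p varied 1.94-fold, miR-148a-3p 2.80-fold and miR-152-3p 5.56-fold, against a median of 3.60-fold and quartiles of 2.16 and 6.31 for the 134 miRNAs averaging 100 CPM or more. As many as 109 of the 134 varied by at least as much as miR-148b-3p, 79 as miR-148a-3p and 42 as miR-152-3p. A gap of more than 2-fold was seen between libraries 1 and 2 for 56% of these miRNAs, between libraries 1 and 3 for 69.4% and between libraries 2 and 3 for 26.9%. MiR-152-3p passed 2-fold in all 3 of these pairs, at 2.30, 5.56 and 2.42, and miR-148a-3p in both pairs with library 3, at 2.30 and 2.80. MiR-148b-3p passed it in none.

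How the libraries are scaled changed some of these directions. Scaling with TMM factors, which align the bulk of miRNAs in place of the totals, shifted log2 ratios by -0.61 for library 1 over 2, by -0.86 for library 1 over 3 and by -0.25 for library 2 over 3. With these factors miR-148a-3p was at 871, 1097 and 3646 scaled counts per 1000000 in libraries 1, 2 and 3, so that library 1 went from above library 2 to below it while library 3 stayed highest. MiR-152-3p was at 657, 437 and 215, with the libraries in the same order as by CPM. For miR-148b-3p the values were 4275, 3482 and 4007, where library 3 was now above library 2 and near library 1. The family sum went from highest in library 1 to highest in library 3, at 5831, 5058 and 7911. DESeq2 size factors gave the same orders as TMM factors for these members and the sum. Relative to the median log2 ratio of the 134 miRNAs, library 1 over 3 was -2.16 for miR-148a-3p, -0.0046 for miR-148b-3p and 1.51 for miR-152-3p. Thus miR-148a-3p stood highest in library 3 and miR-152-3p highest in library 1 with totals, TMM factors, DESeq2 size factors and the authors' RPM alike. MiR-148b-3p was highest in library 1 in each of these, but the order of libraries 2 and 3 depended on the scaling.

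**Figure D3:**
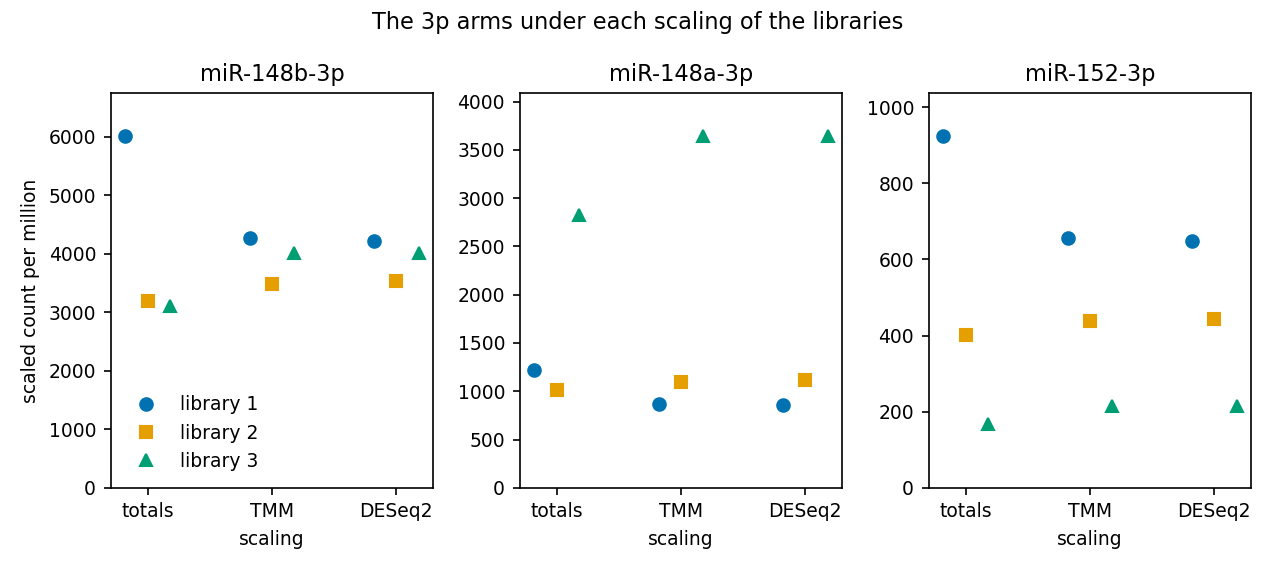
Scaled counts per 1000000 of the 3p arms (each panel from 0, with its own axis) with library totals, TMM factors and DESeq2 size factors, 1 point per exosome library. MiR-148a-3p reaches 2820.2 in library 3 with totals and 3646 with TMM factors, above libraries 1 and 2 in each case.

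Markers of other cell types moved with some of these patterns. MiR-122-5p, the single hepatocyte marker used, was highest in library 3 (1500.02 CPM), as miR-148a-3p was, and so was the neuronal sum (14.02 CPM), in which miR-124-3p was at 0 throughout. By CPM the summed erythroid and stromal markers were highest in library 1 (89.7 and 247 CPM), as miR-148b-3p and miR-152-3p were. Those of epithelium and endothelium were highest in library 2 (440 and 44.6 CPM), where no 3p arm was highest. Single markers did not all follow their sums. The epithelial miR-200c-3p and miR-375-3p were highest in library 3, as miR-148a-3p was, and miR-200b-3p, miR-141-3p and miR-205-5p in library 2. The rare endothelial miR-126a-5p was highest in library 1 (4.32, 0.803 and 1.56 CPM). Most of the stromal sum was miR-199a-3p, while miR-143-3p was not called by the chi-square test (adjusted p = 0.157). The marker sums were not examined with TMM factors, which lower library 1 relative to the others. Of the erythroid markers miR-144-3p was at 0 in library 3. The myeloid sum was lowest in library 1, at 71315 CPM against 345021 and 300167 in libraries 2 and 3. Most of that gap was miR-21a-5p, without which the sum was 33998, 39743 and 38679 CPM, nearly all of it miR-146a-5p (33401, 35012 and 36543). MiR-142a-3p (42.9, 1364 and 819), miR-142a-5p (292, 818 and 390) and miR-155-5p (74.8, 2388 and 829) were lowest in library 1 as well. Highest in library 1 were miR-342-3p (149, 106 and 65.4 CPM) and the rare miR-511-3p. MiR-223-3p was highest in library 2 (35.6, 52.6 and 33.0 CPM). The part of these cell types in the members' levels was not tested. In such bulk RNA, vesicles from fewer cells of a type and less of a miRNA per vesicle cannot be told apart.

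The 5p arms were rare in every library, and their own levels showed no clear difference between libraries on the CPM scale. MiR-148b-5p, the most abundant of them, had 110, 87 and 93 counts, or 36.6, 34.9 and 29.0 CPM in libraries 1, 2 and 3 (mean 33.5 ± 3.99, SD, n = 3). Its Wilson 95% intervals, 30.3 to 44.1, 28.3 to 43.1 and 23.7 to 35.5 CPM, overlapped. With TMM factors, however, the chi-square test called it (adjusted p = 0.0096), as it did 89.5% of all tested miRNAs, and library 1 was then the lowest at 26.0 against 38.0 and 37.5. MiR-152-5p had 3, 4 and 9 counts and miR-148a-5p had 3, 3 and 4, too few for the test. At 1.80 ± 0.920 and 1.15 ± 0.134 CPM (SD, n = 3 each) their order could not be settled at this depth, the counts being equal in library 1 and the ratio of miR-152-5p to miR-148a-5p in library 3 being 2.25 with an interval of 0.735 to 6.89.

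The preference for the 3p arm was tested for all hairpins with both arms listed by name and at least 60 counts in all, by edgeR's quasi-likelihood test with library and arm as terms. Of 157 such hairpins 61 (38.9%) had a higher 3p arm at an adjusted p below 0.05, and 126 (80.3%) had unequal arms in either direction. All 3 family hairpins were among the 61, with the 3p arm higher in 3 of 3 libraries. The fitted log2 ratio of 3p over 5p was 10.34 for miR-148a (edgeR adjusted p = 5.6e-14), 7.79 for miR-152 (2.1e-09) and 6.87 for miR-148b (2.5e-10). By the size of this ratio in the 3p direction miR-148a ranked 11, miR-152 ranked 24 and miR-148b ranked 35 of the 157, and the median size in either direction was 6.24. In all 3 hairpins the arm that carries the common seed, printed after the loop, was thus the more abundant one in the exosome libraries. Each of these 3p arms begins with U, but so does the minor arm miR-152-5p.

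**Figure D4:**
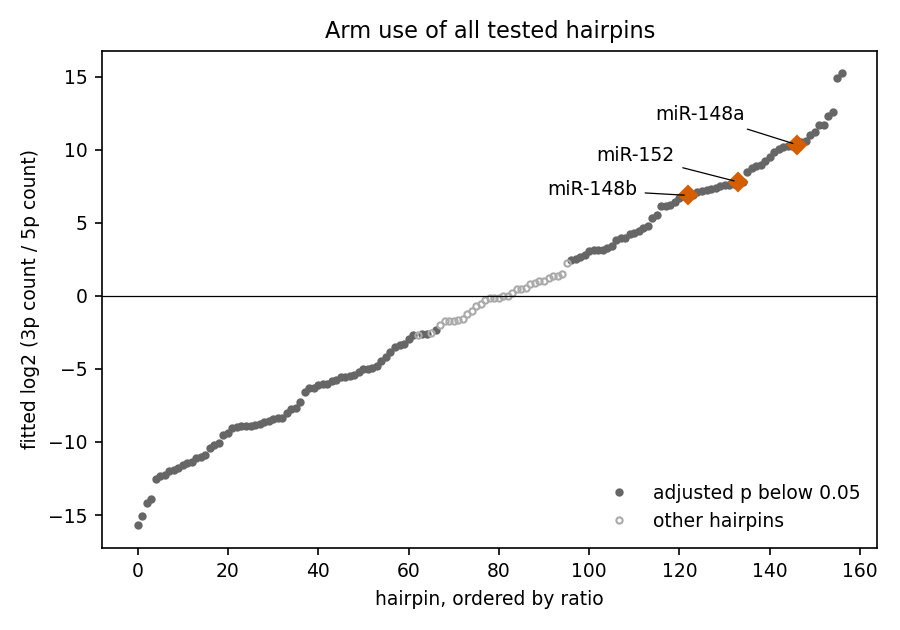
Fitted log2 ratio of the 3p over the 5p count for 157 hairpins, in order of the ratio, with filled points for an edgeR adjusted p below 0.05. The family hairpins (diamonds) lie at 6.87, 7.79 and 10.34, on the 3p side.

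The share of the minor arm differed among the hairpins and, for miR-152 and miR-148b, among libraries. For miR-148a the 5p arm made up 0.0813%, 0.119% and 0.0442% of the hairpin's counts in libraries 1, 2 and 3, resting on 3 or 4 counts, with overlapping Wilson 95% intervals (0.0277 to 0.239, 0.0406 to 0.350 and 0.0172 to 0.114). For miR-148b it made up 0.604% (0.502 to 0.728), 1.08% (0.877 to 1.33) and 0.926% (0.757 to 1.13), so that library 1 lay below both others beyond counting error. Which arm accounts for this depends on the scaling: by CPM library 1 over 3 was 1.94-fold for the 3p arm and 1.26-fold for the 5p arm, while with TMM factors the 3p arm differed 1.07-fold and the 5p arm 1.44-fold, library 1 being the lower for the 5p arm. For miR-152 the shares were 0.108% (0.0366 to 0.316), 0.398% (0.155 to 1.02) and 1.66% (0.874 to 3.12), where the intervals of libraries 1 and 3 did not overlap. Its log2 ratio of 3p over 5p averaged 7.91 ± 1.98, against 10.37 ± 0.72 for miR-148a and 6.87 ± 0.44 for miR-148b (SD, n = 3 each). The fitted value of miR-152 was 6.80 without library 1 and 8.85 without library 3. Whether the arm shares differ between libraries beyond replicate spread cannot be tested with 1 library each.

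Other miRNAs whose seed holds the last 6 bases of the family seed were mostly rare. Seeds that share its first 6 bases were not searched for. The miR-130/miR-301 seed, AGUGCAA, holds the last 6 bases of the family seed, AGUGCA, shifted by 1 position. Among the 1623 miRNAs with a sequence, 9 outside the family had AGUGCA within bases 2 to 8, of which 5 had no count and 3 averaged at least 10 CPM. MiR-130b-3p had 763, 107 and 45.2 CPM in libraries 1, 2 and 3, miR-350-5p had 49.5, 14.1 and 10.3, and miR-301a-3p had 16.6, 13.7 and 4.36. By CPM all 3 were highest in library 1 and lowest in library 3, the order also seen for miR-152-3p. The median log2 ratio of the 134 miRNAs averaging 100 CPM or more went the same way, at 0.62 for library 1 over 2 and 0.16 for library 2 over 3. These 3 miRNAs were not examined with TMM factors. MiR-148b-3p exceeded miR-130b-3p, the highest of them, in each library.

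In a chosen list of 9 miRNAs known to act on DNA methyltransferase transcripts, the family's 3p arms were the largest part. The list includes all 3 of them and is not a full catalogue, so their share depends on its make-up. They made up 62.0%, 61.1% and 68.9% of the summed level of that list of 9 in libraries 1, 2 and 3, a mean of 64.01% ± 4.27 (SD, n = 3). Next by their means came miR-29a-3p, which targets Dnmt3a and Dnmt3b, at 3923, 2108 and 2002 CPM, then miR-185-5p at 886, 528 and 245 and miR-29b-3p at 12.6, 133 and 384, the last above miR-185-5p in library 3. All 9 were called different among libraries by the chi-square test, against 90.1% of all tested. The list's median of mean levels was 498 CPM, the mean of miR-152-3p itself, and 142 CPM over the 6 miRNAs outside the family, against 32.5 CPM for the 353 miRNAs tested.

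In the list of 15 miRNAs studied in osteoclast formation miR-148a-3p was a smaller part. It ranked 3, 5 and 3 in libraries 1, 2 and 3 and made up 2.73%, 0.317% and 1.03% of the list's sum, which was mostly miR-21a-5p (201361 CPM by the mean). MiR-26a-5p (4416 CPM) and miR-29a-3p (2677 CPM) followed by their means. MiR-124-3p had no count, which allows up to 0.997, 1.20 and 0.935 CPM (3 counts) in libraries 1, 2 and 3. By the chi-square test all 12 tested members were called, again against 90.1%, and the list's median of mean levels was 173 CPM.

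Last, the miRNAs with the library pattern most like that of miR-148a-3p were listed. Likeness was the largest difference over the 3 libraries between log2(CPM + 1) values, each set relative to the miRNA's own mean, among the 134 miRNAs of at least 100 CPM. The closest was miR-1981-5p at 188, 132 and 418 CPM, with a largest difference of 0.14, and then miR-423-5p (0.35) at 628, 384 and 1668 CPM. MiR-183-5p (0.39), miR-151-3p (0.42) and miR-10a-5p (0.43) followed, against a median of 1.499 over the other 133 miRNAs. By CPM all 5 were highest in library 3 and lowest in library 2, as miR-148a-3p was, an order that their selection by likeness favours. The sequence relatives of miR-148a-3p were further off, miR-148b-3p in place 40 of 133 (1.23) and miR-152-3p in place 105 (2.14). With only 3 libraries such a likeness is a description, and many miRNAs can share a pattern.

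**Figure D5:**
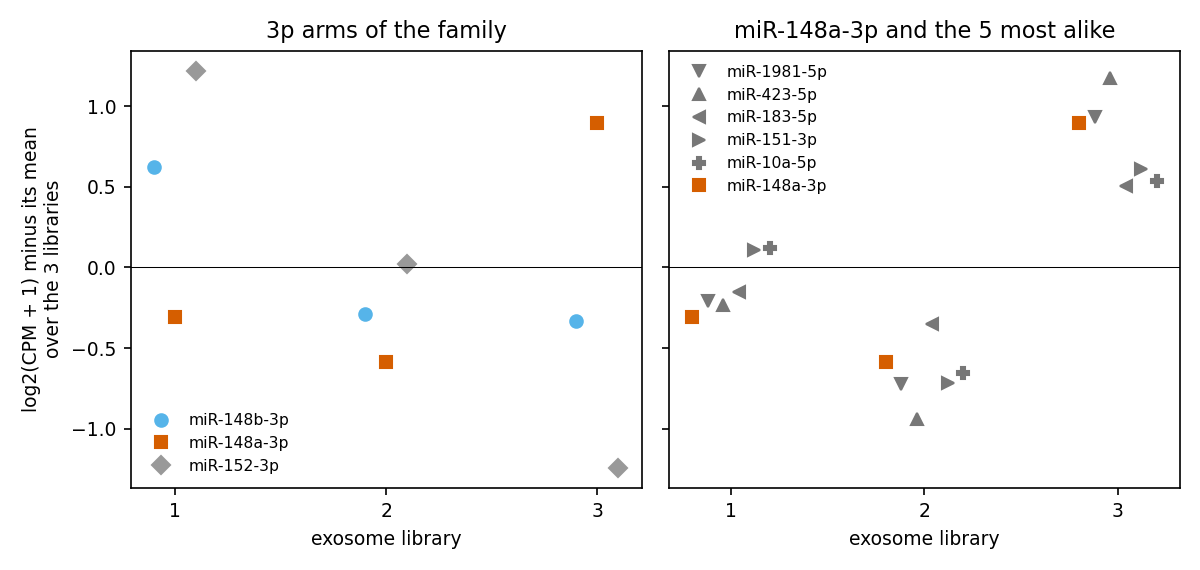
Level of each miRNA relative to its own mean over the libraries, as log2(CPM + 1) minus that mean, for the 3p arms (left) and for miR-148a-3p with the 5 most alike (right), side by side within each exosome library. MiR-148a-3p is highest in library 3 (0.90), where miR-152-3p is lowest (-1.24).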

How the data were processed

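Small RNA was sequenced from 3 libraries of 1 group, grouped by their titles. Per the labels' protocols, TRIzol RNA was given 3′ and 5′ adapters, amplified, size-selected on a gel (NEBNext kit) and read as single ends of 50 bases. The submitters' processing notes name bcl2fastq, BWA and mm10 with no versions. How adapters were trimmed, how many mismatches were allowed, which miRNA release was used and how multiply matching reads were counted are details not given in the sources used here. Some names had identical counts in every library, such as miR-199a-3p and miR-199b-3p (672, 312 and 367 in libraries 1, 2 and 3). These were kept as separate entries in totals and tests. No molecular identifiers are mentioned, so counts are of PCR products. Wilson intervals (95%) and floors (3 counts) cover counting error only.

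The authors deposited whole-number counts per mature miRNA, used for all tests, and an RPM column. The deposited RPM is the count per 1000000 of 14047692, 13995845 and 14002577 in libraries 1, 2 and 3, of which miRNA counts were 21.4%, 17.8% and 22.9%. The libraries held 3008995, 2489984 and 3208617 miRNA counts, to which counts were scaled (CPM), so that 3 counts are 0.997, 1.20 and 0.935 CPM.

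The chi-square test (scipy 1.17.1) was adjusted over 353 miRNAs. The arm test (edgeR 4.0.16, R 4.3.3) had the library as a block, since both arms come from 1 library, and arms were paired by name. DESeq2 1.42.0, TMM factors, other filters (10 and 100 counts for the chi-square test, 1 and 200 for the arm test), 1 count added to ratios and leaving out each library were alternatives. Both tests were checked on simulated data. The text names all 6 members, the 5 miRNAs most like miR-148a-3p, seed relatives of at least 10 CPM, and of each list the 3 highest outside the family and those at 0. Members and lists were chosen with earlier results of these data known. Sequences came from RefSeq and hosts from GENCODE M21, both on GRCm38. The result of 1 further list of miRNAs is not reported here.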

Additional observations from a re-analysis of the deposited data

How the results depend on the processing

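The call for each of the 3 family hairpins in the arm test held under every alternative run, including the fit without the library as a replicate block (log2 3p over 5p of 10.46, 6.94 and 8.07 for miR-148a, miR-148b and miR-152), and the count of unequal hairpins was 126 without the block as with it. DESeq2 called 129 of 157. Leaving out library 1, 2 or 3 gave 122 of 142, 99 of 151 and 105 of 151. With no filter 168 of 473 hairpins (35.5%) were called, and 107 of 128 with at least 200 counts. The chi-square count of 318 of 353 tested went to 177 of 288, 284 of 327 and 279 of 319 without library 1, 2 and 3. Filters of 10 and 100 counts gave 366 of 468 and 240 of 255. TMM factors and DESeq2 size factors gave 316 and 314 of 353. MiR-148b-3p lost its call without library 1 (adjusted p = 0.055), and miR-148b-5p gained one with TMM factors (0.0096) and DESeq2 size factors (0.0058). The other member calls did not change.

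Means moved by less than 1 SD with TMM factors or DESeq2 size factors. Leaving out 1 of 3 libraries cannot move a mean by 1 SD whatever the data, so only the ranges are given for it. Means with a library left out were 1117 to 2023 CPM for miR-148a-3p, 3149.9 to 4607 for miR-148b-3p, 284 to 663 for miR-152-3p, 1.10 to 1.23 for miR-148a-5p, 32.0 to 35.7 for miR-148b-5p, 1.30 to 2.21 for miR-152-5p and 5384 to 7161 for the family. The authors' RPM has a larger denominator by construction and gave means of 363, 856, 103, 0.238, 6.90, 0.381 and 1329 in the same order. Mean log2 ratios ranged over -1.98 to -0.90 (miR-148a-3p over miR-148b-3p), 0.87 to 2.70 (miR-148a-3p over miR-152-3p) and 2.85 to 3.61 (miR-148b-3p over miR-152-3p) and kept their sign. Of the 5 miRNAs most like miR-148a-3p, 3 remained when the filter was lowered to 10 CPM, where miR-10b-5p and miR-29c-3p entered, and all 5 remained with a pseudocount of 0.1 CPM. Depth limits what can be said of miR-148a-5p and miR-152-5p, with 10 and 16 counts in all.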
